A study of Mus musculus with 35 samples.

Results

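The effect of 6-N-propylthiouracil (PTU) on gene expression was measured in the testis of Akt1 homozygous (Akt1-/-) mice at postnatal day 15. The comparison uses 6 of the 35 arrays of the series, those of 3 PTU-exposed and 3 unexposed homozygous mice, which were chosen by genotype, exposure and age alone. The mice were male, of strain C57BL6, and total RNA of the testis of each mouse went onto its own MoGene 1.0 st v1 array. The other groups used here at day 15 were unexposed and PTU-exposed Akt1+/+ (wild type) and unexposed and PTU-exposed Akt1+/- (heterozygous) mice, with 3 arrays in each. At day 25 the same 6 groups were measured on Mouse Genome 430 2.0 arrays, with 3 arrays in each group except the exposed homozygous group, which had 2. The labels give neither the dose, route or period of the PTU exposure nor the construction of the Akt1 allele. All values below are log2 intensities, and each difference is the mean of the exposed arrays minus the mean of the unexposed arrays with its standard error (SE) from limma, over n = 3 and 3 mice unless stated.

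PTU blocks thyroid peroxidase and so the synthesis of thyroid hormone. In the neonatal testis thyroid hormone ends the division of Sertoli cells, the somatic cells that nurse the germ cells, and drives their maturation, and goitrogens given to newborn rodents prolong the immature phase. Maturing Sertoli cells build the blood-testis barrier from tight junctions and actin-anchored adhesion sites while the first germ cells pass through meiosis. Akt1 is a serine-threonine kinase downstream of PI3K with roles in cell survival and growth, and the title of the series sets the question of its part in maintaining that barrier after PTU.

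The gene named in the genotype did not separate exposed from unexposed arrays, which share the same genotype. Akt1 read 9.40, 9.23 and 9.04 in the unexposed and 9.74, 9.01 and 9.18 in the exposed arrays, and these ranges overlap (0.08 ± 0.22, adjusted p = 0.852 by limma). In unexposed wild-type arrays Akt1 read 9.34 to 9.71, a range that overlaps that of the unexposed homozygous arrays. Since the labels do not say which part of Akt1 is altered, these values do not check the genotype. Defining markers of Sertoli cells (6 of 6 on the array), peritubular cells (4 of 4), spermatogonia (5 of 5) and macrophages (4 of 4) were above the detection threshold of 5.56 in all 6 arrays, whereas only 1 of 5 spermatid markers was, with Acrv1 below it throughout. Markers of tissue next to the testis were unevenly present: the epididymal gene Spink8 read 5.09, 4.91 and 6.73 in unexposed and 5.09, 8.74 and 4.83 in exposed arrays, and the fat and muscle gene Car3 read 5.55, 8.57 and 6.87 unexposed and 5.27, 6.01 and 5.74 exposed. Spink8 was above the detection threshold in 2 of these arrays and highest in exposed array 2. Car3 was above it in 4 and highest in unexposed array 2. Unexposed array 3 and exposed array 2 were above it for both genes. Of the markers on the array, 1 of 4 for epididymis, 2 of 5 for fat and 2 of 3 for muscle exceeded it in all 6 arrays. Correlations between pairs of the 6 arrays lay between 0.9662 and 0.994. Probe sets with no gene name split the 18 arrays of day 15 into a set of 12, which holds unexposed arrays 1 and 2 and exposed array 1, and a set of 6, which holds unexposed array 3 and exposed arrays 2 and 3. This split is not in the labels.

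Of 16710 genes tested, 730 fell with PTU (4.37%) and 98 rose (0.586%) at an adjusted p under 0.05 by limma, 828 in all (4.96%). The falls had a median difference of -0.55 and the rises of 0.46, against 0.007 over all genes, and 50 falls and 7 rises were larger than 2-fold. The 3 exposed arrays lay wholly below the 3 unexposed ones for 706 of the 730 falls and wholly above for 96 of the 98 rises, while over all tested genes the groups did not overlap for 20.4% (11.4% lower, 9.03% higher). Exposed array 1 was the exposed array nearest to the unexposed mice for 524 of the 730 falls (71.8%) and for 51 of the 98 rises (52%). Over all tested genes, however, exposed array 3 had the highest correlation with each unexposed array (0.9822, 0.9811 and 0.985). For exposed array 1 these correlations were 0.9712, 0.9795 and 0.983. The count rested on the spread shared by all 6 groups and on single mice. No gene passed when only the 6 homozygous arrays were fitted (2695 at an unadjusted p under 0.05, against 3771 in the fit of all 18 arrays), and the count became 91 without unexposed array 1, 160 without unexposed array 2, 1283 without unexposed array 3, 1598 without exposed array 1 and 56 without exposed array 2, the array with the high Spink8 value. It was 0 without every array of day 15 in which Spink8 exceeded 7 (2270 at an unadjusted p under 0.05), 0 within the set of 12 arrays (3993) and 4 within the set of 6 (1761).

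The largest fall among genes without overlap was that of Hsd3b6. This gene, a 3β-hydroxysteroid dehydrogenase of adult-type Leydig cells, read 9.11, 9.33 and 8.31 in unexposed and 7.91, 5.47 and 5.96 in exposed testes. The lowest unexposed array was above the highest exposed one, exposed array 1 was the highest of the exposed arrays, and the difference was -2.47 ± 0.64 (adjusted p = 0.0346). Nxf3, an X-linked member of the nuclear RNA export factor family, read 11.89, 11.92 and 11.72 unexposed and 10.84, 9.05 and 9.49 exposed, a difference of -2.05 ± 0.35 (adjusted p = 0.0079). Glb1l3, a galactosidase-like gene, read 11.12, 10.97 and 10.90 unexposed and 9.88, 8.22 and 9.27 exposed (-1.87 ± 0.30, adjusted p = 0.00728). In both genes the unexposed arrays lay close together and the exposed arrays were spread widely below them. The other members of the 12 largest falls without overlap were Gm648 (-1.88), Tsx (-1.81), Mcf2 (-1.76), Dmrtc1b (-1.66), Emb (-1.64), Drp2 (-1.61), a dystrophin-related protein, Fyb2 (-1.54), Lrp8 (-1.53), an apolipoprotein E receptor, and the histone H2bc4 (-1.50). Of these 12 genes 6 lie on the X chromosome, which holds 560 of the 16698 tested genes with a known chromosome, and exposed array 1 was the highest exposed array in 11. All 12 were also lower with PTU in wild-type and in heterozygous testis, and for none of them did the difference between homozygous and wild type pass the test.

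**Figure D1:**
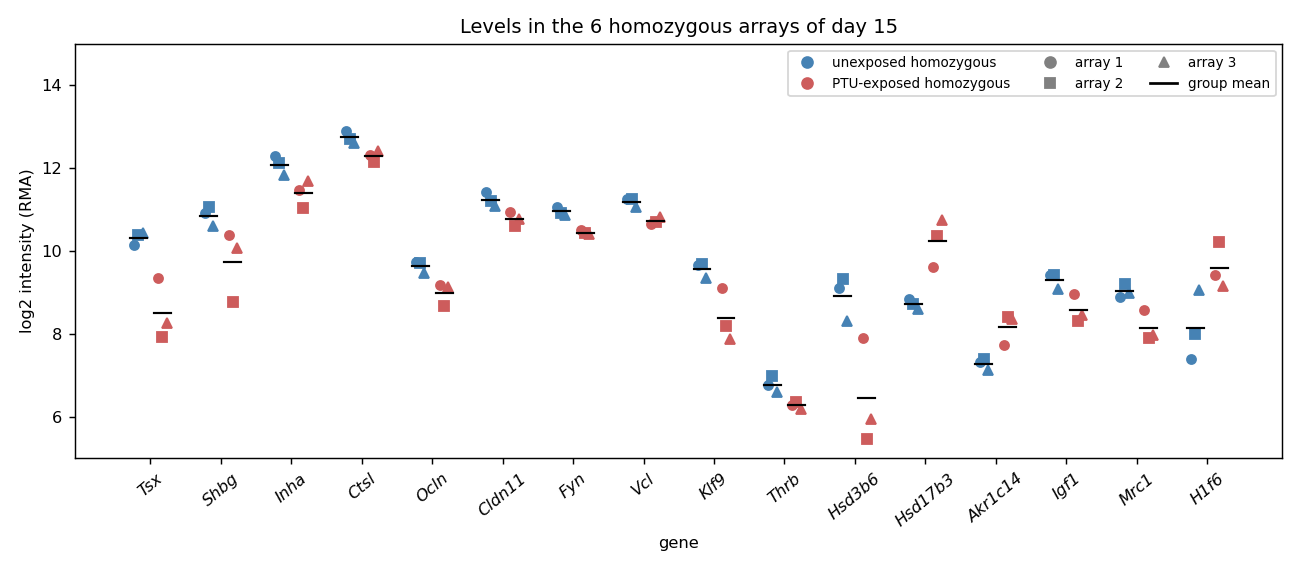
Log2 intensities of 16 genes (horizontal axis) in the 3 unexposed (blue) and 3 PTU-exposed (red) homozygous arrays of day 15, with the array number as the symbol and the group mean as a line. The exposed values lie below the unexposed ones for every gene except Hsd17b3, Akr1c14 and H1f6, where they lie above, and exposed array 1 is the red point nearest to the blue ones for Tsx, Klf9 and Hsd3b6.

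Among the 12 largest rises without overlap were 2 steroid enzymes. Hsd17b3, the enzyme that makes testosterone from androstenedione, read 8.85, 8.71 and 8.61 in unexposed and 9.63, 10.37 and 10.76 in exposed testes. Each exposed array was above each unexposed one, by 1.53 ± 0.29 in the mean (adjusted p = 0.00869), and the gene also rose in wild-type (1.96, adjusted p = 0.00024) and heterozygous testis (1.71, adjusted p = 0.00972). Akr1c14, a 3α-hydroxysteroid dehydrogenase, read 7.33, 7.39 and 7.13 unexposed and 7.73, 8.41 and 8.36 exposed (0.88 ± 0.18, adjusted p = 0.0122). Gml, which encodes a membrane-anchored protein of the LY6 family, read 7.86, 8.93 and 10.08 unexposed and 11.10, 10.90 and 10.10 exposed, with the third unexposed array only just below the third exposed one (1.74 ± 0.42, adjusted p = 0.0246). The others were H1f6 (1.45), the testis linker histone, AA467197 (1.34), Tmprss13 (1.08), a membrane serine protease, Pbx4 (0.96), a homeobox gene of spermatocytes, 4930524B15Rik (0.92), 1810064F22Rik (0.90), Hoatz (0.85), Cyp2d10 (0.83), a cytochrome P450, and Rpl10l (0.81), a ribosomal protein gene used in meiosis. None of the 12 lies on the X chromosome, 7 were lower with PTU in wild type, and for 7 the difference between homozygous and wild type passed the test. Ptchd3 had a larger difference than these 12 (2.47 ± 0.68) but its groups overlapped, at 5.37, 6.80 and 8.40 unexposed and 10.24, 9.69 and 8.05 exposed.

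Of 19 genes of thyroid hormone action 3 fell (15.8%, against 4.37% of all tested genes), none rose and 16 did not pass, and the median difference was -0.07. Klf9, a transcription factor that thyroid hormone induces in many tissues, read 9.66, 9.69 and 9.35 in unexposed and 9.10, 8.19 and 7.87 in exposed testes, a difference of -1.18 ± 0.24 (adjusted p = 0.0122). Bcl3, an IκB-family coactivator, read 8.48, 8.26 and 8.14 unexposed and 7.89, 7.10 and 7.10 exposed (-0.93 ± 0.22, adjusted p = 0.0226). Thrb, the thyroid hormone receptor β, read 6.76, 6.98 and 6.59 unexposed and 6.29, 6.35 and 6.20 exposed (-0.50 ± 0.11, adjusted p = 0.0177). For all 3 genes the groups did not overlap, and exposed arrays 2 and 3 held the lowest values of Klf9 and Bcl3. Hr, the hairless corepressor, had a difference of -0.31 (adjusted p = 0.0924), with every exposed array below every unexposed one. The receptor Thra (0.07), the activating deiodinase Dio2 (-0.01), the inactivating deiodinase Dio3 (0.15) and the hormone-responsive gene Thrsp (-0.02) did not pass, with adjusted p-values of 0.593 or more. In wild type Klf9 differed by -0.41 and Thrb by 0.05, neither past the threshold, and between homozygous and wild type the difference passed for Thrb (-0.54, adjusted p = 0.026) and not for Klf9 (-0.77, adjusted p = 0.136). Without exposed array 2 none of the 19 genes passed and the median was -0.10.

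Of 15 genes that mark the maturation of Sertoli cells 6 fell (40%, against 4.37% of all tested genes) and 9 did not pass. A difference below 0 was found for 14, and the median was -0.45, against 0.007 over all genes. For 11 of the 15 all exposed arrays lay below all unexposed ones, a pattern found in 11.4% of all genes. The mean level over the 15 genes lay between 9.53 and 9.70 in the unexposed and between 8.85 and 9.24 in the exposed arrays. Shbg, which Sertoli cells secrete as androgen-binding protein, read 10.93, 11.05 and 10.60 unexposed and 10.38, 8.78 and 10.07 exposed, a difference of -1.12 ± 0.27 (adjusted p = 0.0235), with the lowest value in exposed array 2. Emb, embigin, which carries monocarboxylate transporters to the cell surface, read 8.68, 8.88 and 8.54 unexposed and 7.67, 6.48 and 7.03 exposed (-1.64 ± 0.32, adjusted p = 0.00971). Ctsl, the protease cathepsin L secreted by maturing Sertoli cells, was bright in every array, at 12.91, 12.70 and 12.62 unexposed and 12.32, 12.14 and 12.42 exposed, and fell by a smaller but even step (-0.45 ± 0.09, adjusted p = 0.0132). The actin bundler Espn (-0.57), the iron carrier Trf (-0.57) and the lactate transporter Slc16a1 (-0.43) made up the rest. In bulk testis fewer cells of a type and less RNA per cell cannot be told apart. The median was -0.21 in wild type and -0.14 in heterozygous testis. The mean level over the 15 genes was 9.8 to 10 in unexposed and 9.12 to 9.54 in exposed wild-type arrays. In heterozygous arrays it was 9.55 to 9.70 unexposed and 9.12 to 9.27 exposed. In wild type 4 of the 15 fell and 2 rose, against 8.75% and 6.53% of all tested genes. In heterozygous testis 4 fell and none rose, against 0.377% and 0.192%. By the test of the difference 3 of the 15 genes were more negative in homozygous than in wild type. The water channel Aqp8 was the 1 more positive. Over all tested genes 8.13% were more negative and 8.23% more positive by that test. With the array set as a block 6 of the 15 fell, and without exposed array 2 none passed, at a median of -0.37.

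Among 15 genes that define Sertoli cells 3 fell (20%, against 4.37% of all tested genes) and none rose. Of the 15, 14 were below 0, and the median was -0.21, nearer to 0 than that of the maturation genes. Tsx, an X-linked gene whose testis product is made in Sertoli cells, read 10.14, 10.38 and 10.45 unexposed and 9.36, 7.93 and 8.26 exposed, a difference of -1.81 ± 0.37 (adjusted p = 0.0111). Erbb4, a neuregulin receptor, read 8.27, 8.39 and 7.92 unexposed and 7.64, 7.82 and 7.39 exposed (-0.57 ± 0.13, adjusted p = 0.0177). The remaining fall was that of Cldn11, which is counted again among the tight junction genes below. The transcription factors Sox9 (-0.21), Wt1 (-0.21), Gata4 (0.09) and Dmrt1 (-0.16) and the follicle-stimulating hormone (FSH) receptor Fshr (-0.20) did not pass. Their adjusted p-values were 0.15 for Wt1 and higher for the others, and Gata4 was the one with a positive difference. Sox9, Wt1 and Dmrt1 were each more negative in homozygous than in wild type, where they differed by 0.44, 0.23 and 0.45. Of 12 genes of immature, dividing Sertoli cells 1 fell (8.33%, against 4.37% of all tested genes), the inhibitory factor Id2 (-1.03 ± 0.20, adjusted p = 0.00881). A further 1 rose (8.33%, against 0.586%), Ptgds (0.57 ± 0.11, adjusted p = 0.00871), which is also on the Leydig cell list, and the median was -0.03. Id2 read 10.30, 10.05 and 10.08 in unexposed and 9.57, 8.55 and 9.22 in exposed testes, all exposed values being lower. In wild type the 12 genes had a median of 0.34. By the test of the difference 7 of them were more negative in homozygous than in wild type, against 8.13% of all tested genes. Their mean level was 8.99 to 9.11 in unexposed homozygous and 8.32 to 8.56 in unexposed wild-type arrays, without overlap. In exposed arrays it was 8.79 to 9.15 in homozygous and 8.73 to 8.89 in wild-type testis.

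Of 19 inhibin, activin and FSH-pathway genes 2 fell (10.5%, against 4.37% of all tested genes), at a median of -0.05. Inha, the α subunit that all inhibins share, read 12.29, 12.13 and 11.84 unexposed and 11.49, 11.04 and 11.70 exposed (-0.68 ± 0.14, adjusted p = 0.0142). Pde4d, which breaks down the cyclic AMP made after FSH, read 8.04, 8.30 and 8.00 unexposed and 7.32, 7.44 and 7.39 exposed (-0.73 ± 0.18, adjusted p = 0.0279). For both genes the exposed arrays lay wholly below the unexposed ones. The β subunits did not pass, with differences of -0.05 for Inhba and -0.10 for Inhbb. Kitl, the stem cell factor that Sertoli cells present to spermatogonia, differed by -0.33 in homozygous and 0.66 in wild type, and that difference between genotypes passed the test (-0.99, adjusted p = 0.00224).

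The bases before the start of these genes were searched for AGGTCA, the half-site that thyroid hormone receptors bind and that other nuclear receptors share. The windows were the 250 bases upstream of each RefSeq transcript start (GRCm38.p6), read 5′ to 3′ on the gene's strand, and AGGTCA and its reverse TGACCT both counted. Of 21 genes that passed in the lists of Sertoli identity and maturation, thyroid hormone, inhibin, tight junctions and Leydig cells 19 had a window, and 4 held a half-site. The 19 genes had 25 windows, of which 4 held a half-site. Ocln and Thrb each had a further window without one, not shown. These 4 genes are shown because all fell with PTU, followed by Klf9, which fell furthest among the thyroid hormone genes and has none in this window. Capitals mark the half-site.
Inha, chr1:75507359-75507608, plus strand: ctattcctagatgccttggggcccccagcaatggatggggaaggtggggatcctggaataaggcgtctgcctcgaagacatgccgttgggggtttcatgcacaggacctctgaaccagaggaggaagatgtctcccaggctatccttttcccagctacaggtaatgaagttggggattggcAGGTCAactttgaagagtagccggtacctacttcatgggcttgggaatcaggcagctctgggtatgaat
Thrb, chr14:17660710-17660959, plus strand: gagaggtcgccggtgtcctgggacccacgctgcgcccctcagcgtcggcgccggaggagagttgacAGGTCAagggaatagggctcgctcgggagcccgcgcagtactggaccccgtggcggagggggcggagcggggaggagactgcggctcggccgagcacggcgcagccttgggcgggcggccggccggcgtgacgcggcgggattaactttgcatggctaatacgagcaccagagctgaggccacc
Tsx, chrX:103414217-103414466, plus strand: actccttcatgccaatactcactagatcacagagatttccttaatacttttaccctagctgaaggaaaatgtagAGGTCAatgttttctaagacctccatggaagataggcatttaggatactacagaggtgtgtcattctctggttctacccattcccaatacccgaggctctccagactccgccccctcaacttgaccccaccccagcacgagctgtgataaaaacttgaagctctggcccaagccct
Ocln, chr13:100552719-100552968, minus strand: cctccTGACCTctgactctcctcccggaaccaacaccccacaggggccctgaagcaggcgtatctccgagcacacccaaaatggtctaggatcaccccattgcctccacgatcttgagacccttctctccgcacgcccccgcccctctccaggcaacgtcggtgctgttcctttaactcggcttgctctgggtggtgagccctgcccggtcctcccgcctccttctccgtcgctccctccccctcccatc
Klf9, chr19:23140976-23141225, plus strand: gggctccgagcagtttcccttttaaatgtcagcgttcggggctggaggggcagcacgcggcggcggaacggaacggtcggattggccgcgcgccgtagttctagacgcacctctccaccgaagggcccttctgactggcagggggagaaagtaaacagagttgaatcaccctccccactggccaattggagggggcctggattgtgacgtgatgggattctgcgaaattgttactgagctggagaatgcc
The first base of the half-site lies at -69 in Inha, -184 in Thrb, -176 in Tsx and -245 in Ocln, counted from the transcript start of the window shown. Half-sites were found in 12.3% of the 778 windows of genes that fell, in 20.9% of the 86 windows of genes that rose and in 11.8% of the 16482 windows of all tested genes. The cyclic AMP element TGACGTCA, which reads the same on both strands and shares no whole motif with the half-site, was in 2.83%, 3.49% and 2.26% of them. A match describes these letters and not a bound site.

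The tight junction genes of the blood-testis barrier gave 3 falls (13.6%, against 4.37% of all tested genes) and no rise among 22, at a median of -0.12. Ocln, occludin, read 9.73, 9.72 and 9.46 in unexposed and 9.18, 8.66 and 9.13 in exposed testes, a difference of -0.65 ± 0.14 (adjusted p = 0.0142). Cldn11, the main claudin of the barrier, read 11.42, 11.21 and 11.10 unexposed and 10.93, 10.61 and 10.78 exposed (-0.47 ± 0.12, adjusted p = 0.0356), and Cldn12 differed by -0.38 ± 0.10 (adjusted p = 0.0425). In all 3 genes the exposed arrays were wholly lower. The scaffold Tjp1, ZO-1, differed by -0.29 (adjusted p = 0.0535), the junctional adhesion molecule F11r by -0.36 (adjusted p = 0.0786) and cingulin, Cgn, by -0.31 (adjusted p = 0.106). None of these 3 passed, although each exposed array was below each unexposed one. Cldn3 (0.10) and Cldn5 (0.12) did not pass either and their groups overlapped. In wild type the list had a median of 0.14, Ocln differed by 0.32, and the test of the difference passed for Ocln (-0.96, adjusted p = 0.00362), Cldn12 (-0.52, adjusted p = 0.0236), Tjp1 (-0.41, adjusted p = 0.0279) and 4 more genes in the same direction, and for Cldn3 in the other (0.67, adjusted p = 0.0255). Over all tested genes 8.13% were more negative and 8.23% more positive in homozygous than in wild type. The mean level of the 22 genes was 8.63 to 8.73 in unexposed homozygous and 8.33 to 8.45 in unexposed wild-type arrays, so the 2 unexposed groups did not overlap.

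Of 34 cadherin, nectin, integrin and actin-linker genes of the adhesion sites 8 fell (23.5%, against 4.37% of all tested genes) and none rose, at a median of -0.11, and for 12 the exposed arrays lay wholly below the unexposed ones. Cdh2, N-cadherin, read 9.96, 10.03 and 9.81 unexposed and 9.67, 9.27 and 9.26 exposed (-0.53 ± 0.11, adjusted p = 0.0131). Fyn, a Src-family kinase at these sites, read 11.07, 10.93 and 10.88 unexposed and 10.50, 10.44 and 10.41 exposed, with little spread within either group (-0.51 ± 0.09, adjusted p = 0.00832). Vcl, vinculin, read 11.25, 11.26 and 11.07 unexposed and 10.66, 10.69 and 10.82 exposed (-0.47 ± 0.09, adjusted p = 0.00853). The differences of the integrin Itga6 (-0.54), Nectin2 (-0.53), paxillin, Pxn (-0.47), and Eps8 (-0.36), an actin capping protein, were of similar size. The remaining fall was that of Espn (-0.57), already counted among the genes of Sertoli cell maturation. In wild type the list had a median of 0.13, and 8 genes were more negative and 1 more positive in homozygous than in wild type, among them Fyn (-0.61, adjusted p = 0.00418) and Vcl (-0.64, adjusted p = 0.0024). The shares over all tested genes were 8.13% more negative and 8.23% more positive. The mean level of the 34 genes was 9.56 to 9.65 in unexposed homozygous and 9.28 to 9.41 in unexposed wild-type arrays, without overlap. In exposed arrays it was 9.38 to 9.51 in homozygous and 9.44 to 9.52 in wild-type testis. No gap junction or desmosome gene passed of 11, at a median of 0.07, and Gja1, a connexin of Sertoli cells, differed by -0.31 with overlapping groups. Without exposed array 2, 1 adhesion gene and no tight junction gene passed, at medians of -0.16 and -0.08.

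**Figure D2:**
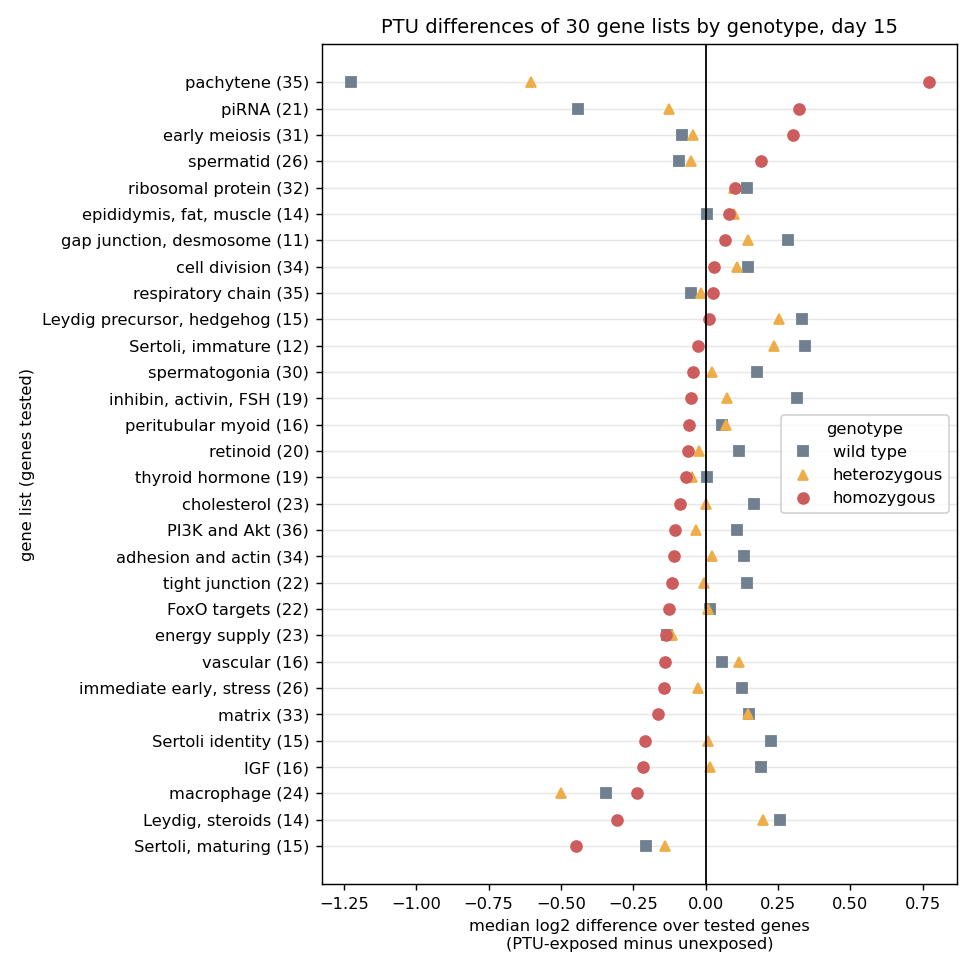
Median log2 difference, exposed minus unexposed, of 30 gene lists (vertical axis, with the number of genes tested) in homozygous (circles), wild-type (squares) and heterozygous (triangles) testis at day 15. The homozygous medians run from -0.45 for maturing Sertoli cells to 0.77 for pachytene spermatocytes, and the pachytene median is -1.23 in wild type.

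Leydig cell genes moved in both directions. Of 14 measured 3 rose (21.4%, against 0.586% of all tested genes) and 2 fell (14.3%, against 4.37%), at a median of -0.31. Beside Hsd17b3 and Akr1c14, given above, Ptgds, a prostaglandin D synthase already counted among the immature Sertoli genes, rose from 6.96, 6.98 and 6.73 to 7.25, 7.55 and 7.59. Beside Hsd3b6, the fall was that of Scarb1, the receptor that takes up cholesterol from lipoproteins, at 11.49, 11.28 and 11.08 unexposed and 10.65, 10.76 and 10.89 exposed (-0.52 ± 0.14, adjusted p = 0.0484). For these 5 genes the groups did not overlap. The cholesterol carrier Star read 8.84, 9.97 and 9.17 unexposed and 8.00, 8.86 and 8.23 exposed (-0.96 ± 0.54, adjusted p = 0.306), Cyp17a1 differed by -0.71 (adjusted p = 0.597) and Cyp11a1 by -0.51 (adjusted p = 0.347). The groups of these 3 genes overlapped and none passed. Hsd3b6 fell in wild type too (-3.18, adjusted p = 0.00307) and the difference between genotypes did not pass (0.71, adjusted p = 0.629). The mean of 4 defining Leydig markers was 8.99 to 9.51 in unexposed and 8.45 to 8.70 in exposed arrays. With the array set as a block neither fall passed, and without exposed array 2 none of the 14 passed. Of 15 genes of Leydig precursors and hedgehog signalling Igf1 and Lifr fell (-0.73 and -0.40), a share of 13.3% against 4.37% of all tested genes. Hhip, a hedgehog decoy receptor, differed by 0.26 in homozygous against 1.00 in wild type (-0.74, adjusted p = 0.0336 for the difference).

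Of 24 macrophage genes 6 fell with PTU in homozygous testis (25%, against 4.37% of all tested genes) and none rose. The differences of 16 were below 0 and of 8 above, at a median of -0.24. Mrc1, the mannose receptor of tissue-resident macrophages, read 8.88, 9.22 and 8.99 unexposed and 8.57, 7.90 and 7.97 exposed (-0.88 ± 0.17, adjusted p = 0.00918). C1qc, a complement subunit made by macrophages, read 8.46, 8.44 and 8.22 unexposed and 8.02, 7.61 and 7.28 exposed (-0.73 ± 0.19, adjusted p = 0.0342). Fcer1g (-0.60), Laptm5 (-0.54), Cd68 (-0.41) and Cd163 (-0.34) also fell, and in all 6 the groups did not overlap. The antigen-presenting genes H2-Aa (0.06), H2-Ab1 (0.28) and Cd74 (0.13) did not pass. Medians were -0.34 in wild type and -0.50 in heterozygous testis, and only Fcgr3 of the 24 passed the test of the difference between homozygous and wild type (1.56, adjusted p = 0.00515), against 16.4% of all tested genes. The mean level of the 24 genes was 7.18 to 7.28 in unexposed and 6.89 to 7.11 in exposed homozygous arrays. Without exposed array 2 none passed and the median was -0.23.

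Matrix genes showed 3 falls among 33 (9.09%, against 4.37% of all tested genes), at a median of -0.16. Timp2, an inhibitor of matrix metalloproteinases, read 11.10, 10.87 and 10.68 unexposed and 10.04, 10.05 and 9.76 exposed (-0.93 ± 0.14, adjusted p = 0.00728). Lamb2, a laminin subunit of basement membranes, read 10.56, 10.51 and 10.63 unexposed and 10.05, 9.77 and 9.89 exposed (-0.66 ± 0.12, adjusted p = 0.00853), and the proteoglycan Dcn differed by -0.46 ± 0.11 (adjusted p = 0.0257). In these 3 genes the groups did not overlap, and Timp2 also fell in wild type (-0.60, adjusted p = 0.00828) and heterozygous testis (-0.69, adjusted p = 0.0316). No gene passed among 16 of peritubular myoid cells (median -0.06) and 16 of vessels and blood (median -0.14).

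Genes of meiotic germ cells had higher means with PTU in homozygous testis, with a wide spread between mice. All 35 pachytene genes had a difference above 0, at a median of 0.77, but 1 of them passed the test (2.86%, against 0.586% of all tested genes that rose). It was H1f6, at 7.40, 8.00 and 9.05 unexposed and 9.42, 10.22 and 9.16 exposed (1.45 ± 0.40, adjusted p = 0.0478). Ldhc, the lactate dehydrogenase of spermatocytes, read 6.44, 7.03 and 8.78 unexposed and 10.70, 10.12 and 8.14 exposed (2.23 ± 0.70, adjusted p = 0.0765). Unexposed array 3 was above exposed array 3 for this gene, so the groups overlapped. Piwil1, which binds pachytene piRNAs, read 7.02, 7.59 and 8.84 unexposed and 10.17, 9.93 and 8.25 exposed (1.63 ± 0.57, adjusted p = 0.107), with the same order of arrays. Both were chosen after their values were seen. The mean over the 35 genes was 7.06, 7.32 and 7.86 in the unexposed arrays from the lowest to the highest and 7.67, 8.43 and 8.66 in the exposed ones. In unexposed wild-type arrays it was 9.51 to 9.85, above every homozygous array with or without PTU, and in exposed wild-type arrays 7.99 to 8.82. In wild type the median difference of the 35 genes was therefore of the opposite sign, at -1.23, and 25 of them were more positive in homozygous than in wild type by the test of the difference, with none more negative. The shares over all tested genes were 8.23% more positive and 8.13% more negative. Within the set of 12 arrays the homozygous median was 1.41 and within the set of 6 it was 0.12, and with the array set as a block it was 0.72, with H1f6 no longer past the threshold (adjusted p = 0.0545 by limma).

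Lists of neighbouring germ cell stages had smaller positive medians. Of 31 genes of meiotic entry and recombination none passed and 25 were above 0 (median 0.30), and 7 were more positive than in wild type. Of 21 piRNA genes none passed and 18 were above 0 (median 0.32), and 11 were more positive than in wild type. Over all tested genes 8.23% were more positive than in wild type. Mael, a component of the piRNA granule, read 10.88, 10.95 and 11.12 unexposed and 11.52, 11.37 and 11.22 exposed (0.39 ± 0.12, adjusted p = 0.0715). Syce1, a synaptonemal complex protein, read 9.31, 9.55 and 9.51 unexposed and 10.20, 9.91 and 9.79 exposed (0.51 ± 0.15, adjusted p = 0.0574). For both the exposed arrays lay wholly above the unexposed ones. None of 26 spermatid genes (median 0.19) and none of 30 spermatogonial genes (median -0.04) passed, and the spermatid genes stayed near the detection threshold, as Prm1 shows with 5.35, 5.28 and 5.49 unexposed and 5.47, 5.79 and 5.71 exposed.

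**Figure D3:**
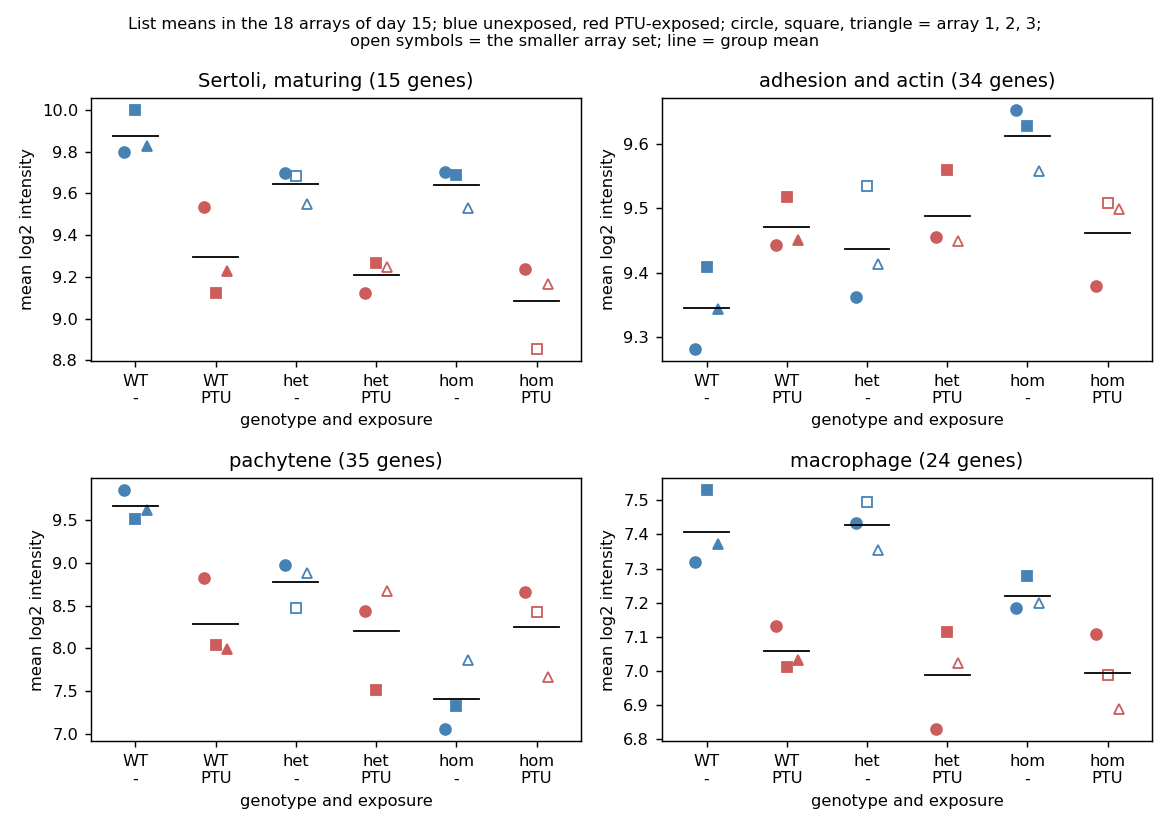
Mean log2 intensity of 4 gene lists in each of the 18 arrays of day 15, by genotype and exposure (blue unexposed, red PTU-exposed, line for the group mean, open symbols for the smaller array set). Homozygous exposed arrays lie below the unexposed ones for maturing Sertoli, adhesion and macrophage genes, and unexposed homozygous arrays have the lowest group mean for pachytene genes, with arrays at 7.06 to 7.86.

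Genes of the PI3K and Akt pathway gave 2 falls among 36 (5.56%), a share near the 4.37% of all tested genes, at a median of -0.11. Sgk1, a kinase related to Akt, read 7.82, 7.96 and 7.57 unexposed and 7.35, 6.62 and 7.01 exposed (-0.79 ± 0.19, adjusted p = 0.023). Inppl1, a lipid phosphatase that limits Akt signalling, read 10.23, 10.20 and 10.03 unexposed and 9.86, 9.81 and 9.84 exposed (-0.32 ± 0.08, adjusted p = 0.0235). The groups did not overlap for either gene. Akt2 read 11.31, 11.34 and 11.12 unexposed and 10.96, 11.05 and 11.07 exposed and did not pass (-0.23 ± 0.08, adjusted p = 0.0972). The receptor Insr (-0.44, adjusted p = 0.091), the regulatory subunit Pik3r1 (-0.43, adjusted p = 0.089) and Foxo1, a transcription factor that Akt restrains (-0.32, adjusted p = 0.0634), did not pass. Foxo1 differed by 0.36 in wild type (adjusted p = 0.0181), and the difference between genotypes passed (-0.68, adjusted p = 0.00337). Of 22 genes that FoxO factors are known to raise 3 fell (13.6%, against 4.37% of all tested genes), at a median of -0.13. They were the cell death gene Bcl2l11 (-0.62 ± 0.11, adjusted p = 0.00853), Klf6 (-0.56) and Sesn1 (-0.46). Bcl2l11 read 9.02, 9.05 and 8.77 unexposed and 8.52, 8.13 and 8.34 exposed. Of 16 genes of the insulin-like growth factors 1 fell (6.25%, near the 4.37% of all tested genes). It was Igf1, also counted among the Leydig precursor genes, from 9.42, 9.43 and 9.08 to 8.96, 8.32 and 8.46 (-0.73 ± 0.17, adjusted p = 0.0209). The difference of Igf1 from wild type passed (-0.95, adjusted p = 0.0134).

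Of 23 genes of glucose, lactate and carnitine supply 5 fell (21.7%, against 4.37% of all tested genes), at a median of -0.14. Cpt1a, which admits fatty acids to mitochondria, read 10.52, 10.48 and 10.37 unexposed and 9.92, 9.64 and 9.78 exposed (-0.68 ± 0.12, adjusted p = 0.00853). Hk2, hexokinase, read 10.97, 10.90 and 10.62 unexposed and 10.36, 9.97 and 10.31 exposed (-0.62 ± 0.13, adjusted p = 0.0109), and the glucose transporter Slc2a1 differed by -0.51 ± 0.11 (adjusted p = 0.0146). These 3 genes differed by 0.07, 0.08 and 0.16 in wild type, and the test of the difference passed for each (-0.75, -0.70 and -0.68). Over the whole list 8 genes were more negative and 7 more positive in homozygous than in wild type, against 8.13% and 8.23% of all tested genes. In wild type 10 of the 23 fell, against 8.75% of all tested genes, and the median difference between the genotypes over the list was 0.27. The most positive were the germ cell forms Ldhc (4.62) and Pgk2 (2.59) and the glucose transporter Slc2a3 (2.85), none of which passed in homozygous testis itself. Emb and Slc16a1, which together move lactate and are also on the list of maturing Sertoli cells, were the other 2 falls. Without exposed array 2 none of the 23 passed. Of 23 cholesterol genes 1 fell (4.35%, near the 4.37% of all tested genes), Scarb1, already counted among the Leydig cell genes. Hmgcs1 did not pass (-0.32, adjusted p = 0.0905).

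The remaining lists held few calls. Of 34 cell division genes 1 rose (2.94%, against 0.586% of all tested genes), and the median was 0.03. It was the cyclin Ccne2, at 8.88, 8.99 and 8.87 unexposed and 9.76, 9.26 and 9.15 exposed (0.47 ± 0.13, adjusted p = 0.046). None passed among 20 retinoid genes (median -0.06), 26 immediate early and heat shock genes (median -0.14), 32 ribosomal protein genes (median 0.10), 35 respiratory chain genes (median 0.03) and 14 genes of epididymis, fat and muscle (median 0.08). Their nearest members were Rara (-0.32, adjusted p = 0.0997), Gadd45b (-0.47, adjusted p = 0.0508), Rps19 (0.51, adjusted p = 0.08), Ndufa5 (0.21, adjusted p = 0.146) and Car3 (-1.32, adjusted p = 0.108).

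Of 560 genes tested on the X chromosome, 64 fell (11.4%) and 1 rose, the kinase Srpk3 (0.35), against 4.12% of genes on other chromosomes that fell. Among the autosomes the share ran from 2.9% to 6.57%. The median difference was -0.13 for X-linked genes and 0.01 for the rest, and X-linked medians were 0.22 in wild type and 0.09 in heterozygous testis. Phf8, an X-linked histone demethylase, read 10.64, 10.59 and 10.47 unexposed and 10.16, 10.08 and 10.05 exposed (-0.47 ± 0.08, adjusted p = 0.00728), and it rose in wild type (0.33, adjusted p = 0.00887). The histone deacetylase Hdac6 (-0.44), the copper pump Atp7a (-0.45) and the transcription factor Tfe3 (-0.73) fell as well, and were chosen after their values were seen. With the array set as a block 11.4% of X-linked and 4.18% of other genes fell, and without exposed array 2 these shares were 0.714% and 0.316%.

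**Figure D4:**
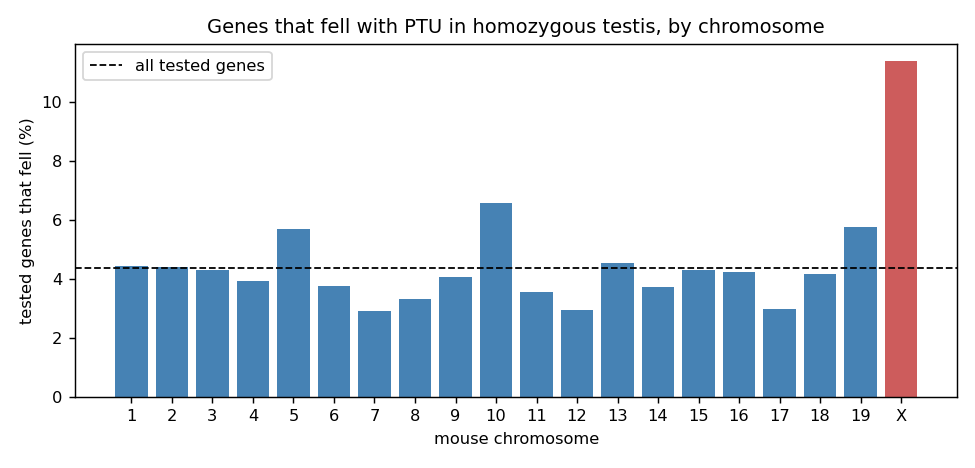
Share of tested genes that fell with PTU in homozygous testis at day 15 (vertical axis, percent) by chromosome, with the share over all tested genes (4.37%) as a dashed line. The X chromosome (red) stands at 11.4%, and the autosomes lie between 2.9% and 6.57%.

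The PTU difference in homozygous testis was then set against that in wild type, which uses 6 other arrays. For 2734 genes (16.4%) the 2 differences were unequal by the test of the difference, 1375 being more positive (8.23%) and 1359 more negative (8.13%) in homozygous testis. In wild type 1091 genes rose (6.53%) and 1462 fell (8.75%), 15.3% in all. Of the 730 falls in homozygous testis 79 also fell in wild type, which is 10.8% of the homozygous and 5.40% of the wild-type falls, and 32 rose there. Of the 98 rises 4 also rose (4.08% and 0.367%) and 25 fell. Since the test of the difference contains the homozygous difference that chose these genes, the 335 falls (45.9%) that were more negative and the 60 rises (61.2%) that were more positive than in wild type are given as a description. The 4 most significant positive interactions were those of Abca14, Ccdc110, CK137956 and Pxt1, and in the first 3 the homozygous difference itself did not pass. Abca14, a lipid transporter, differed by 0.46 in homozygous and -2.09 in wild-type testis (2.56, adjusted p = 1.24e-05 for the difference). Pxt1, a testis-specific peroxisomal gene, rose in homozygous (0.38 ± 0.10, adjusted p = 0.0305) and fell in wild type (-1.04, adjusted p = 5.03e-06). The 4 most significant negative ones were those of Sel1l3 (-2.72), Tbc1d30 (-1.82), Zfp462 (-0.94) and Phf8 (-0.80). Tbc1d30, a Rab GTPase-activating protein, read 8.47, 8.15 and 8.06 unexposed and 7.46, 7.32 and 7.58 exposed in homozygous testis (-0.77 ± 0.14) and rose in wild type by 1.05. All wild-type arrays are in the larger array set, and the count was 1692 without unexposed homozygous array 1, 1563 and 1819 without unexposed wild-type arrays 1 and 3, 1799 without exposed wild-type array 2, and 1026 without the arrays in which Spink8 exceeded 7. The share of more positive genes was 50.3%, and became 68.5% when each array was centred on its median and 63.4% after quantile normalization. Over all alternatives it lay between 40.9%, with array weights, and 69.5%, without the arrays in which Spink8 exceeded 7.

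**Figure D5:**
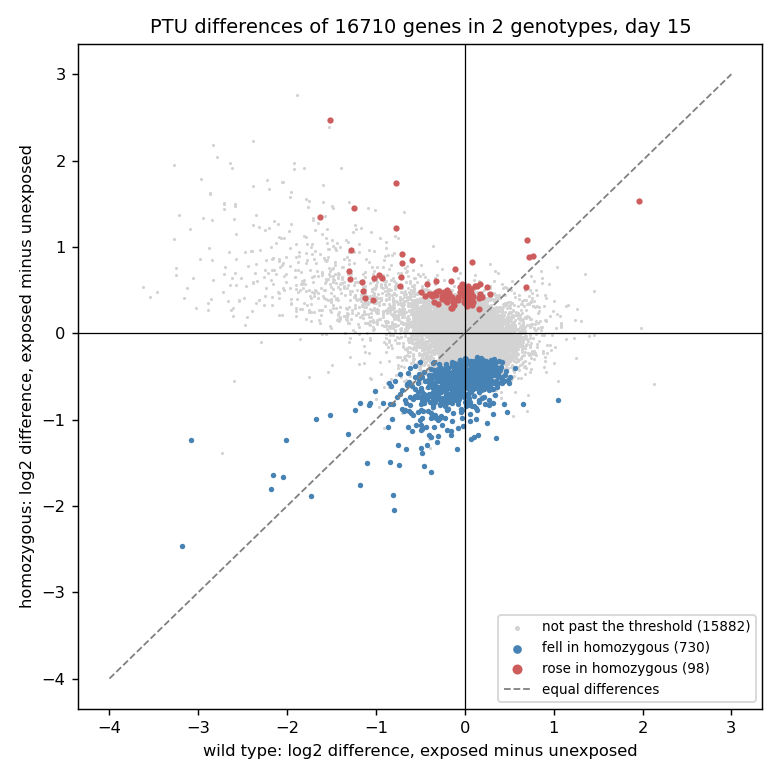
Log2 difference, exposed minus unexposed, of each of 16710 genes in wild-type (horizontal axis) and homozygous testis (vertical axis) at day 15, with genes that fell (730, blue) and rose (98, red) in homozygous testis. Hsd3b6 is the lowest blue point, at -2.47 in homozygous and -3.18 in wild type, and 66 of the 98 red points lie left of 0.

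Against heterozygous testis no gene passed the test of the difference by limma, and 2822 (16.9%) had an unadjusted p under 0.05. Without exposed heterozygous array 3 the count was 201. In heterozygous testis 32 genes rose and 63 fell (0.569%). Of the 730 homozygous falls 631 (86.4%) had a negative difference in heterozygous testis, against 49.3% of all genes, and 429 (58.8%) in wild type, against 43.8%. Dmrtc1b fell in all 3 genotypes, by -2.05 in wild type, -1.45 in heterozygous and -1.66 in homozygous testis, and so did Tsx (-2.18, -2.07 and -1.81), Emb (-2.16, -1.63 and -1.64) and Fcer1g (-0.65, -0.73 and -0.60). Espn fell in heterozygous (-0.61, adjusted p = 0.0384) and homozygous testis.

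At day 25, in other mice and on another array type, 6264 genes rose (38.4%) and 5351 fell (32.8%) with PTU in homozygous testis, 71.2% of 16305. The 2 exposed arrays of that age differed widely from their controls in markers of other tissue and of sperm formation: Spink8 differed by 6.83, Car3 by 4.17 and the protamine Prm1 by -6.55. Their part in the other differences was not tested. Of the 730 falls of day 15, 692 were tested at day 25, and 235 of them (34.0%) were lower there, against 44.6% of all genes. Of the 98 rises 71 were tested and 25 (35.2%) were higher at day 25, against 55.4% of all genes.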

How the data were processed

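The series matrix tables hold log2 intensities per probe set that the authors deposited after RMA, per the submitters' processing notes, with its version and options not given in the sources used here. Values at day 15 ran from 2.19 to 14.9, with array medians of 7.02 to 7.12; the number of arrays limits the precision. Of 35556 probe sets 21789 carry 1 gene symbol in the platform annotation, 1621 several and 12146 none, and only the first were used. The brightest probe set stood for each of 19938 genes, and 16710 that exceeded the 25th percentile of all values (5.56) in at least 2 arrays were tested. Limma 3.58.1 (R 4.3.3) fitted 6 group means to the 18 arrays of day 15 (17 at day 25) with lmFit and eBayes, and p-values were adjusted by Benjamini-Hochberg at 0.05. Tests of a difference between genotypes were contrasts of the same fit. The code was tested on simulated data. The comparison, the 30 gene lists and the alternatives were chosen with earlier results of these data known. Genes were named by rule: Akt1 and Akt2, the 12 largest rises and 12 largest falls that passed and whose groups did not overlap, up to 4 members of each list that passed (the 2 nearest where fewer than 2 did), the 4 rises and 4 falls with the smallest p of each interaction that passed, and Spink8 and Car3; other list members were chosen after their values were seen. Some items covered by the rule are not reported here. The 18 arrays were split into 2 sets by average-linkage clustering of 1685 probe sets with no gene name and a mean above 9. Alternatives changed the filter, probe set rule, scaling, weights, blocks and arrays used. Promoter sequences are those of RefSeq (GRCm38.p6).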

Additional observations from a re-analysis of the deposited data

Results flagged for a closer look

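The PTU difference in homozygous testis was unequal to that in wild type for 2734 genes at day 15 by limma's test of the difference, and 44 of the genes named by rule are among them. The values below are the homozygous difference minus the wild-type difference on the log2 scale, each over 3 and 3 mice in both genotypes. Among genes of germ cells it was more positive in homozygous testis for H1f6 (2.70), Rdh11 (1.69), Pxt1 (1.42), Syce1 (1.36), Tex101 (1.29), Ccnb2 (1.08), Mael (0.90) and Pld6 (0.84). The same held for AA467197 (2.98), Gml (2.51), Pbx4 (2.25), 4930524B15Rik (1.63), Rpl10l (1.52) and Hoatz (1.44), which are among the 12 largest rises. It also held for Ccne2 (0.71), Rpl13 (0.57), CK137956 (2.66), Abca14 (2.56) and Ccdc110 (2.30). Unexposed homozygous arrays read 5.92 to 6.15 for CK137956, 5.21 to 5.44 for Abca14 and 5.93 to 6.27 for Ccdc110. The unexposed wild-type means of these 3 genes were 8.48, 7.56 and 8.14. Among genes of Sertoli cells and their junctions the PTU difference was more negative for Ocln (-0.96), Erbb4 (-0.94), Vcl (-0.64), Fyn (-0.61), Gja1 (-0.59) and Cldn12 (-0.52). Among genes of signalling and transcription it was more negative for Id2 (-1.28), Igf1 (-0.95), Klf6 (-0.74), Hhip (-0.74), Bcl2l11 (-0.71), Foxo1 (-0.68), Gadd45b (-0.68), Rara (-0.57), Thrb (-0.54) and Inppl1 (-0.51). It was more negative for the metabolic and vascular genes Cpt1a (-0.75), Hk2 (-0.70), Scarb1 (-0.70), Slc2a1 (-0.68) and Cd34 (-0.64), and for Sel1l3 (-2.72), Tbc1d30 (-1.82), Zfp462 (-0.94) and Phf8 (-0.80), the 4 with the smallest p. Over 966 refits of these 44 differences under the alternatives, 889 stayed past the threshold, 77 lost it and 0 reversed.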

How the results depend on the processing

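The count of 828 genes was within 1.5 times under quantile normalization (651), without the filter on low values (684), after median centring (729), with all single-symbol probe sets tested separately (776), with the filter raised to the 50th percentile (972) and the array set as a block (836, of which 713 were shared). It was 1550 with array weights, 0 without arrays with Spink8 above 7 and 0 with only the 6 homozygous arrays. It was 0 and 4 within the sets of 12 and 6 arrays, and 56 to 1598 when each array was left out in turn. Fewer arrays entered the last 4 kinds of fit. With single arrays left out the count lay above 828 in some fits and below it in others. The cause of these changes, and of that with array weights, was not tested. The 2734 differences from wild type became 4904 with array weights, 1026 without arrays with Spink8 above 7 and 1563 to 3130 with each array left out, and the comparison with heterozygous testis gave 0 to 201. The day 25 count stayed between 9613 and 11818 with each array left out. Sample numbers do not pair the homozygous arrays: same-numbered arrays correlated at -0.207, -0.25 and -0.252 in their deviations from the group means. Between exposed wild-type and exposed homozygous arrays the same correlations were 0.557, 0.141 and 0.423, and between the heterozygous groups 0.441, 0.444 and 0.391. With the number as a replicate block 1142 genes passed, 824 of them shared, and the other counts were 3273, 0 and 11477. Of 64 named genes that passed, 10 lost the call with the array set as a block. All 64 lost it with only the 6 homozygous arrays and without arrays with Spink8 above 7. Without exposed arrays 1, 2 and 3 in turn 7, 57 and 16 lost it. Without unexposed arrays 1, 2 and 3 in turn 51, 44 and 4 did. The longest held were 6 genes, in 14 of 18 fits (1810064F22Rik, Glb1l3, Lrp8, Nxf3, Phf8 and Timp2). The least held were Scarb1 and Tmprss13, in 3 of 18 fits, Lifr and Sesn1, in 6, and H1f6 and Ccne2, in 7. Reversed signs, all far from the threshold, were those of Akt1 with array weights (-0.0625) and with single arrays left out (-0.13 to 0.23), of Spink8 without the arrays above 7 (-0.62) and with single arrays left out (-0.62 to 1.34), and of Cox4i1 within the set of 12 arrays (-0.0744); the cause was not tested. Signal near background limits the spermatid, epididymal and Thrb values, and also those of Cd163, Cyp2d10, Hoatz, Gm648, Hsd3b6 and Abca14, which lay below the detection threshold in some of the homozygous arrays.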
